A study of Mus musculus with 6 samples.

Results

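Expression of 10 genes of the lipid droplet and of lipolysis was compared in mouse liver after injection of 1 of 2 related hormones. The genes were Cidea, Cideb, Cidec, Plin2, Plin5, G0s2, Pnpla2, Abhd5, Lipe and Mgll, 10 of the 12393 genes that have a probe set of their own on the Affymetrix Mouse Genome 430A 2.0 array. They were chosen by function, with earlier results of these data known. Every probe set paired with exactly 1 gene and bearing 1 of these symbols was taken. This gave 15 of the array's 22690 probe sets. There were 6 arrays of total liver RNA, 2 per group: vehicle, purified FGF15 and recombinant FGF19. All groups were wild-type male C57Bl/6 mice, injected into the jugular vein and kept without food for the 6 h until the livers were frozen. FGF15 is the mouse hormone that the ileum releases after a meal, and FGF19 is its human counterpart, so the FGF19 group received a human protein. The sources used here give neither dose, nor the make-up of the vehicle, nor the age of the mice. Nothing in the labels ties the 2 arrays of a group to separate mice, and p-values therefore describe only how far these arrays spread, which may be technical.

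Hepatocytes store surplus fatty acids as triglyceride in lipid droplets, whose surface is covered by perilipins and CIDE proteins. Triglyceride is broken down in steps: adipose triglyceride lipase, encoded by Pnpla2, removes the first fatty acid, hormone-sensitive lipase (Lipe) acts mainly on diglyceride, and monoglyceride lipase (Mgll) releases the last fatty acid. The first step is switched on by the coactivator ABHD5 (CGI-58) and held back by the inhibitor G0S2.

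Values are the authors' deposited signal intensities, on a linear scale. Differences are on the log2(signal + 32) scale, which understates the change of genes with low signals, with limma's standard error (SE). A gene is said to rise or fall at an adjusted p under 0.05 over the 9692 genes above the 25th percentile of mean log2 value, a mean signal of 14.0. Every adjusted p below is from limma with Benjamini-Hochberg adjustment. Pearson correlations of the log2 values lay between 0.988 and 0.992 for arrays of the same group and between 0.980 and 0.988 for arrays of different groups. The 3′ to 5′ signal ratio of the β-actin control, a sign of RNA integrity, was 1.30 to 1.39 on 5 arrays and 1.63 on FGF19 replicate 1. That array also had the highest ratio for GAPDH, 0.820 against 0.720 to 0.774. For pyruvate carboxylase it was 3.38 there, against 2.27 to 2.73 on the others. The liver label was borne out by the hepatocyte markers, of which 8 of 8 passed the filter. Their summed signal was 78380 to 79641 with vehicle, 68429 to 74060 with FGF15 and 61070 to 75254 with FGF19. The lower FGF19 sum was that of replicate 1, where Alb was at 6159, against 9377 on replicate 2. Apob went the other way (4445 and 3519). The adipocyte hormones Adipoq (0.413 to 14.7), Retn (1.53 to 14.7) and Lep (1.12 to 3.53) were near 0 on every array. Ucp1 was also low (1.43 to 14.3). The other adipocyte markers with a probe set, Fabp4 (191 to 341) and Plin4 (55.9 to 144), passed the filter. Of the Kupffer cell markers, 9 of 9 were called lower with FGF15 and 8 of 9 with FGF19, beside 6.64% and 7.26% of all genes. Their summed signal was 5345 to 5351 with vehicle, 2798 to 2907 with FGF15 and 2861 to 2876 with FGF19. In whole liver, fewer cells of a type and less RNA per cell cannot be told apart, and the part of these markers in the results below was not tested.

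Of the 10 genes, 9 passed the filter, each with every array above it. Cidea did not pass. Because the 10 genes were chosen with earlier results of these data known, the counts below are a description beside the shares of all genes. With FGF15, 5 of the 9 genes passed the test, against 12.5% of all genes tested. Plin2, G0s2 and Mgll rose, where 5.87% of all genes did, and Plin5 and Pnpla2 fell, where 6.64% did. With FGF19, 6 of the 9 passed, against 13.5% of all genes. Plin2, Cidec and Abhd5 rose, where 6.27% of all genes did, and Plin5, G0s2 and Lipe fell, where 7.26% did. Arrays did not overlap between treated and vehicle livers for 8 of the 9 genes with FGF15 and 7 of the 9 with FGF19, beside 55.0% and 58.7% of all genes. The median log2 difference over the 9 genes was 0.36 with FGF15 and -0.02 with FGF19, beside -0.05 and -0.07 over all genes tested. In a fit of every probe set, 5 of the 15 probe sets passed with FGF15 and 6 with FGF19, beside 5.83% and 5.98% of 22626, and 3 passed for FGF19 minus FGF15, beside 1.77%. Both comparisons with vehicle share its arrays. Plin2 passed the test upward and Plin5 downward in both, G0s2 passed in opposite directions, and Cideb passed in neither. When each array was centred on its median signal, which shifts the median of all genes by 0.12 with FGF15 and 0.15 with FGF19, the FGF15 count was 5 higher and 1 lower and the FGF19 count 3 higher and 0 lower. This centring also moved the share of calls that were higher, over all genes, from 46.9% to 73.8% with FGF15 and from 46.3% to 78.7% with FGF19. Leaving out vehicle replicate 1 gave 3 genes with FGF15 and 3 with FGF19, and the FGF15 count was also 3 when vehicle replicate 2 or FGF15 replicate 2 was left out.

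**Figure D1:**
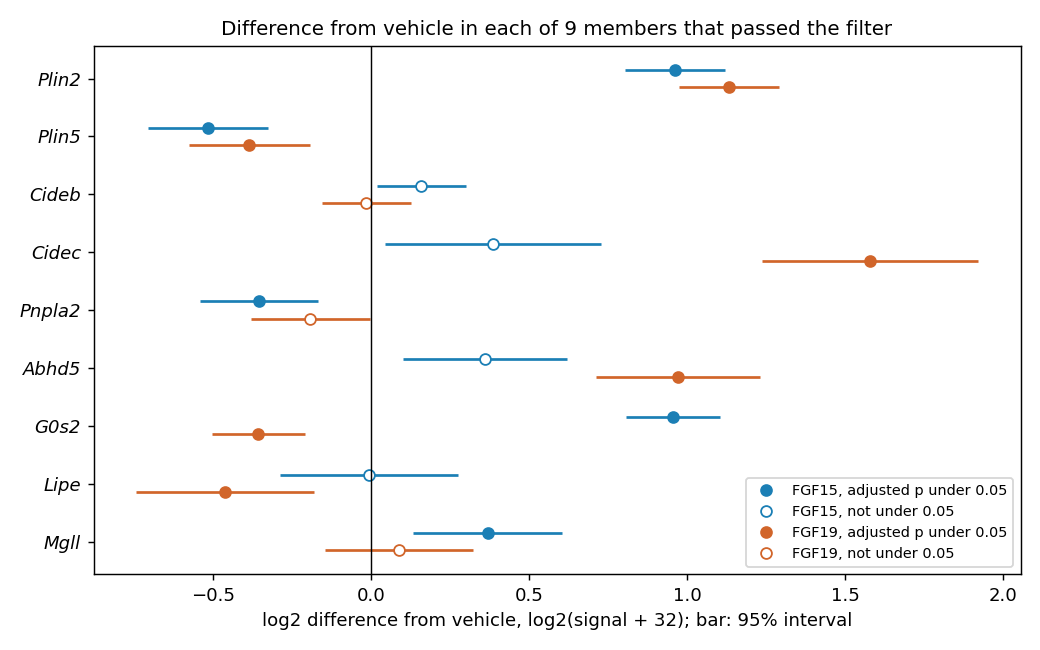
Log2 difference from vehicle for the 9 genes above the filter (x axis, log2(signal + 32) scale; bars are 95% intervals from limma; filled points have an adjusted p under 0.05). Plin2 lies near 1 with both hormones, G0s2 lies at 0.95 with FGF15 and -0.36 with FGF19, and Cidec lies at 0.38 with FGF15 and 1.58 with FGF19.

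Plin2 and Plin5 are the perilipins among the 10 genes. Plin2, perilipin 2 or adipophilin, is the coat protein of most hepatocyte droplets and protects them from lipases. Its 1 probe set, 1448318_at, had a signal of 2359 and 2264 with vehicle, 4472 and 4581 with FGF15, and 4841 and 5372 with FGF19. Both treated groups lay well above vehicle, and the FGF19 arrays lay above the FGF15 arrays. The log2 difference from vehicle was 0.96 ± 0.07 (SE) with FGF15, adjusted p = 2.2e-05, and 1.13 ± 0.07 with FGF19, adjusted p = 6.3e-06. FGF19 minus FGF15 was 0.17, with a 95% interval of 0.01 to 0.33, and did not pass the test (adjusted p = 0.26), but passed with quantile normalization (0.22, adjusted p = 0.0213). Both rises passed the test under all alternatives run, each left-out array included.

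The promoters of Plin2 and of the 3 genes that differed between the hormones (Cidec, Abhd5 and G0s2) are printed where each gene is described, from RefSeq on build GRCm38.p6. Each holds 250 bases before to 50 bases after the annotated start, 5′ to 3′ on the gene's strand. These 4 were chosen after the values were seen. Capitals mark matches, on either strand, to 8 motifs: the nuclear receptor half-site AGGTCA, its direct repeat with 1 base between, called DR1 (which contains the half-site), the E-box CACGTG, the cyclic AMP element TGACGTCA and its half-site TGACG (contained in the former), the forkhead motif GTAAACA, the EGR motif GCGTGGGCG and the TATA box TATAAA. The Plin2 promoter, chr4:86670010-86670309 on the minus strand, holds a half-site match on the opposite strand at position -218 from the start and an E-box at -4.
Plin2: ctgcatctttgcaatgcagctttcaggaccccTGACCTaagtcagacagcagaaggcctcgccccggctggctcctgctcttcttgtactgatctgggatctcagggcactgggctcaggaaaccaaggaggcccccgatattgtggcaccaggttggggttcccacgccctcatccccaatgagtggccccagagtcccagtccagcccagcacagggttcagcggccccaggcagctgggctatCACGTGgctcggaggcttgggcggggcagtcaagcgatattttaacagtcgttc

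Of all 32851 promoters in the RefSeq table, 16.3% hold AGGTCA and 7.15% hold CACGTG. A match is a description of the letters and shows no binding.

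Plin5 coats droplets in tissues that oxidise fatty acids and is known to bind both ABHD5 and the lipase. Its probe set 1424937_at had a signal of 532 and 485 with vehicle, 354 and 336 with FGF15, and 360 and 404 with FGF19. All 4 treated arrays lay below both vehicle arrays, and the FGF19 arrays lay just above the FGF15 arrays. The log2 difference was -0.52 ± 0.09 with FGF15, adjusted p = 0.00334, and -0.39 ± 0.09 with FGF19, adjusted p = 0.0147. FGF19 minus FGF15 was 0.13, with an interval of -0.06 to 0.32. The FGF15 fall passed under all alternatives. The FGF19 fall did not pass with median centring (adjusted p = 0.094), without the intensity trend in the variance (0.0737), without vehicle replicate 1 (0.126) or without FGF19 replicate 1 (0.104).

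**Figure D2:**
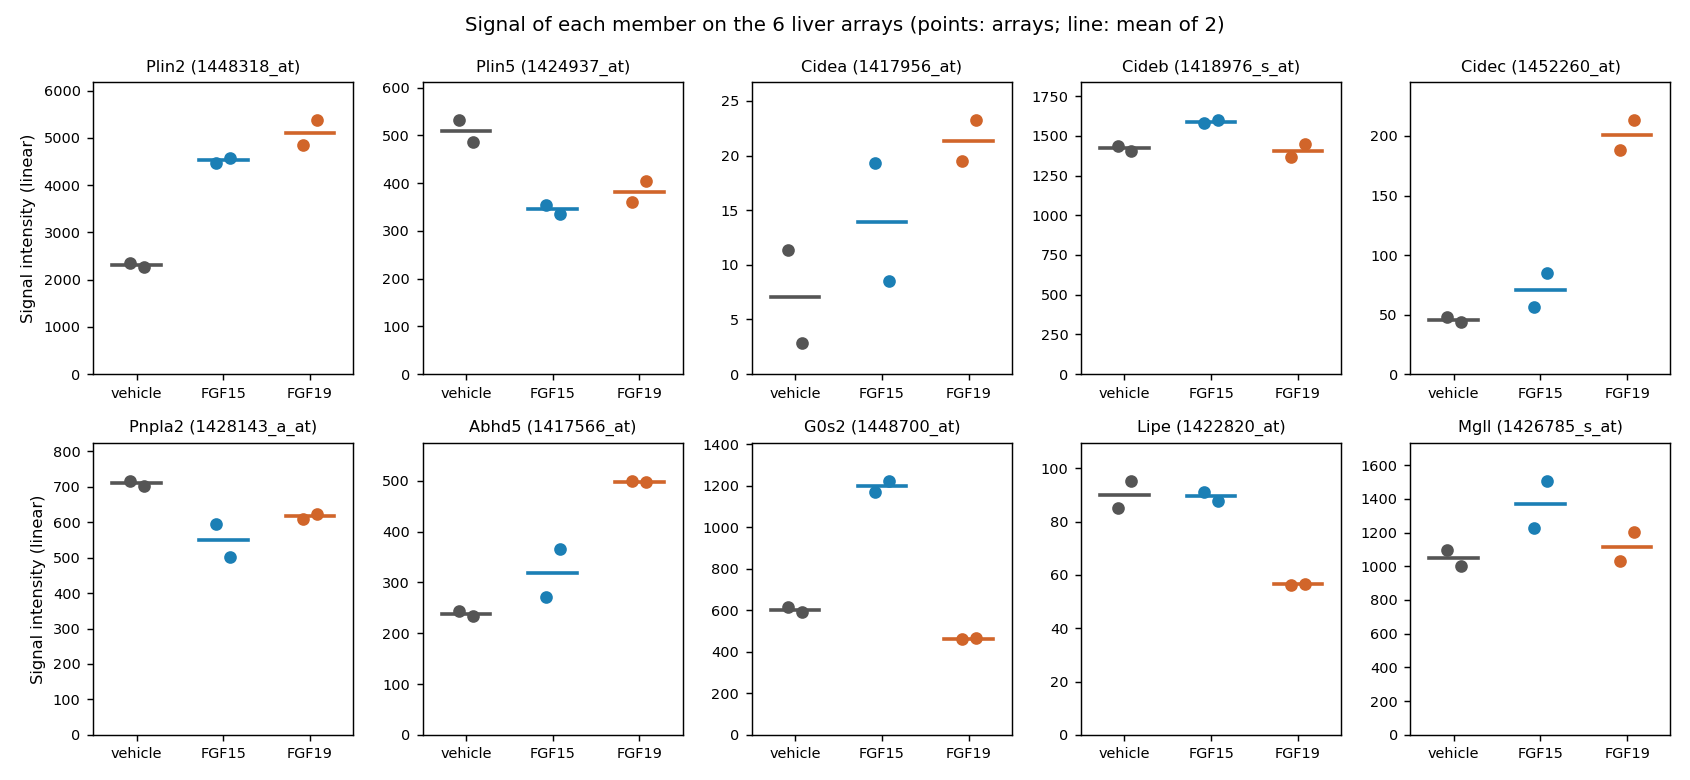
Signal intensity (y axis, linear, from 0) of the 10 genes on the 6 arrays, 1 panel per gene, at the probe set with the highest mean. Points are arrays and lines are means of 2; Plin2 is higher in both treated groups, Cidec and Abhd5 are highest with FGF19, and G0s2 is highest with FGF15.

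The CIDE proteins Cidea, Cideb and Cidec act at droplet contact sites, where CIDEA and CIDEC promote transfer of lipid from smaller to larger droplets, and CIDEB also takes part in loading lipid onto very-low-density lipoprotein. Cidec, also called Fsp27, is abundant in adipocytes and is known to rise in fatty liver. Its probe set 1452260_at had a signal of 48.0 and 43.7 with vehicle, 56.3 and 84.7 with FGF15, and 188 and 213 with FGF19. The FGF19 arrays stood far above the other 4, and the FGF15 arrays lay slightly above vehicle and apart from each other. The mean signal with FGF19 was 4.38 times that with vehicle, and the log2 difference was 1.58 ± 0.15, adjusted p = 1.2e-04. The difference with FGF15 was 0.38 ± 0.15, adjusted p = 0.142, and did not pass the test. Without FGF15 replicate 1 it was 0.59, adjusted p = 0.0431. FGF19 minus FGF15 was 1.19 ± 0.15, adjusted p = 0.00163, and passed under all alternatives, as did the FGF19 rise. Without FGF19 replicate 1, the array with the highest β-actin ratio, the rise was 1.66, adjusted p = 0.00206. The summed signal of the 6 adipocyte markers with a probe set was 449 to 469 with vehicle, 254 to 297 with FGF15 and 452 to 505 with FGF19. Most of it came from Fabp4 and Plin4, the 2 of these markers above the filter.

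The promoter of Cidec at the first of its 2 annotated starts, chr6:113435711-113436010 on the minus strand, holds none of the 8 motifs, and neither does the promoter at the other start.
Cidec: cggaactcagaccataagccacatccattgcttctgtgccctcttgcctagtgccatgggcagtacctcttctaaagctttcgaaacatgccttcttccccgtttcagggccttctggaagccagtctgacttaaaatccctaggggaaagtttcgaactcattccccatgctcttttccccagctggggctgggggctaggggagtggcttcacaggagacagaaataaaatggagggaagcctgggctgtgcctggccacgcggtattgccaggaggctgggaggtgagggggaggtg

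Cideb, the CIDE gene known for expression in hepatocytes, had signals of 1438 and 1406 with vehicle, 1582 and 1597 with FGF15, and 1365 and 1448 with FGF19 at 1418976_s_at. The FGF15 arrays lay above the others, while FGF19 and vehicle overlapped. The log2 difference was 0.16 ± 0.06 with FGF15 (interval 0.02 to 0.30, adjusted p = 0.143) and -0.02 ± 0.06 with FGF19 (interval -0.16 to 0.12, adjusted p = 0.897). With median centring the FGF15 difference passed, adjusted p = 0.0338. The s_at suffix of this probe set means that its probes can match more than 1 transcript. Cidea, which is best known from brown fat, was under the filter with 11.4 and 2.80 in vehicle, 19.3 and 8.51 in FGF15 and 19.5 and 23.2 in FGF19 livers. In a fit of all 22626 probe sets that are no controls, its log2 difference was 0.23 with FGF15 (adjusted p = 0.526) and 0.46 with FGF19 (adjusted p = 0.184). The FGF19 arrays were the highest of the 6, but FGF19 replicate 1 barely exceeded FGF15 replicate 1 (19.5 against 19.3). At these low signals no difference passed the test.

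The next genes act at the first step of lipolysis. Pnpla2 encodes the lipase itself. Its probe set 1428143_a_at had a signal of 716 and 703 with vehicle, 596 and 503 with FGF15, and 610 and 623 with FGF19. All treated arrays lay below vehicle. Its log2 difference from vehicle was -0.36 ± 0.08 with FGF15, adjusted p = 0.022, and -0.19 ± 0.08 with FGF19, adjusted p = 0.165. The fall with FGF15 was not called with median centring (adjusted p = 0.0869), with the mean of both Pnpla2 probe sets (0.709), with every probe set tested (0.0526), without the intensity trend (0.106), or with vehicle replicate 1 (0.126), with vehicle replicate 2 (0.096) or with FGF15 replicate 2 left out (0.128). The second Pnpla2 probe set, 1428591_at, gave 2.35 to 19.0 over the 6 arrays, below the filter on average.

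Abhd5 encodes the coactivator of the lipase. At 1417566_at the signal was 244 and 233 with vehicle, 271 and 366 with FGF15, and 499 and 497 with FGF19. The FGF19 arrays were the highest and nearly equal, the FGF15 arrays lay between, and no groups overlapped. Abhd5 rose by 0.97 ± 0.12 with FGF19, adjusted p = 4.9e-04, and passed under all alternatives. With FGF15 it was 0.36 ± 0.12 higher, adjusted p = 0.0758, and did not pass. The FGF15 difference passed with median centring (adjusted p = 0.0248), with the mean of the probe sets (0.00872) and without FGF15 replicate 1 (0.56, adjusted p = 0.00695). A second probe set, 1417565_at, had 139 and 144 with vehicle, 238 and 275 with FGF15, and 348 and 307 with FGF19. There, in the fit of every probe set, Abhd5 was higher with both hormones, by 0.73 ± 0.10 with FGF15 (adjusted p = 0.00673) and by 1.05 ± 0.10 with FGF19 (adjusted p = 0.00153). The probe sets thus gave the same order of groups, with a larger FGF15 difference at the second. Leaving out an array ended that call for vehicle replicate 1 (adjusted p = 0.0727), for vehicle replicate 2 (0.059) and for FGF15 replicate 2 (0.0586). The Abhd5 promoter, chr9:122351366-122351665 on the plus strand, holds the cyclic AMP half-site at -128 and a nuclear receptor half-site on the opposite strand at -69.
Abhd5: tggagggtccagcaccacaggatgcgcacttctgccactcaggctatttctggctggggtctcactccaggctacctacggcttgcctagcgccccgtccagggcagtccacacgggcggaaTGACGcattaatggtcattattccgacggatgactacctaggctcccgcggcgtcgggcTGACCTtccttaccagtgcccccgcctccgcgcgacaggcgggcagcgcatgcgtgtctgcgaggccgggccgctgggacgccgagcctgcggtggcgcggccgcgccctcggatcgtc

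G0s2 encodes the inhibitor of the lipase. Its probe set 1448700_at had a signal of 614 and 591 with vehicle, 1172 and 1223 with FGF15, and 461 and 465 with FGF19. The 3 groups were fully apart, with FGF15 highest and FGF19 lowest. The log2 difference was 0.95 ± 0.07 with FGF15, adjusted p = 1.4e-05, and -0.36 ± 0.07 with FGF19, adjusted p = 0.00634. Measured directly, FGF19 minus FGF15 was -1.31 ± 0.07, adjusted p = 3.8e-06. The rise with FGF15 and the difference between the hormones passed under all alternatives. The fall with FGF19 did not pass with median centring (-0.21, adjusted p = 0.106), without the intensity trend (0.0596) or without vehicle replicate 1 (0.0668). The G0s2 promoter, chr1:193273139-193273438 on the minus strand, holds the cyclic AMP half-site on the opposite strand at -246, a match that 20.8% of all promoters share.
G0s2: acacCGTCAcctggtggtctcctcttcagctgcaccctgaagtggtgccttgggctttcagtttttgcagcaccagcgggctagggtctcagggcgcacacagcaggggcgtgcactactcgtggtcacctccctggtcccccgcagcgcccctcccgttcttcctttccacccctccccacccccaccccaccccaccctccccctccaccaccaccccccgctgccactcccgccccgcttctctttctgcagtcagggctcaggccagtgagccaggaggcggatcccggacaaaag

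**Figure D3:**
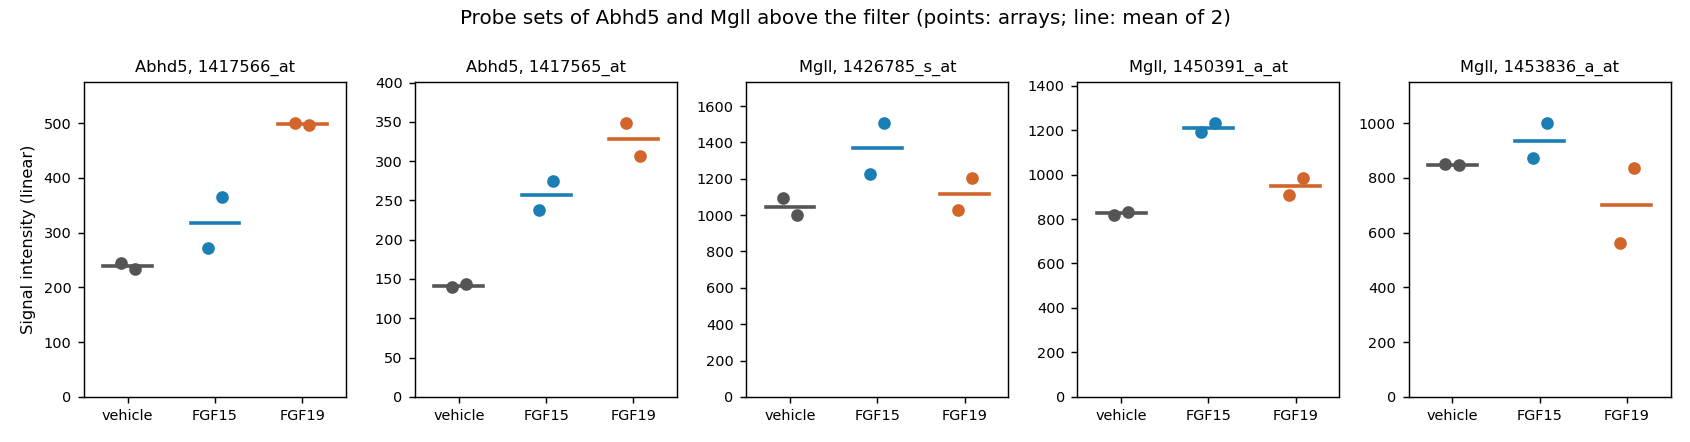
Signal intensity (y axis, linear, from 0) of the Abhd5 and Mgll probe sets above the filter on the 6 arrays, with points for arrays and lines for means of 2. Both Abhd5 probe sets rank the groups vehicle, FGF15, FGF19, whereas the 3 Mgll probe sets give FGF15 the highest mean and differ in how FGF19 compares with vehicle.

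Set against each other within an array, the coactivator and the inhibitor changed unequally. With the vehicle mean at 0, the log2 ratio of Abhd5 over G0s2 was -0.76 and -0.43 in the FGF15 livers and 1.34 and 1.32 in the FGF19 livers. The mean difference from vehicle was -0.59 with FGF15 and 1.33 with FGF19, and the groups did not overlap. Abhd5 was taken here at 1417566_at, where its own FGF15 difference was 0.36, against 0.73 at 1417565_at. G0s2 over Pnpla2 was 1.16 and 1.46 with FGF15 and -0.16 and -0.17 with FGF19. The FGF15 arrays lay well above vehicle and the FGF19 arrays slightly below it. Plin2 over Plin5 was 1.43 and 1.53 with FGF15 and 1.52 and 1.51 with FGF19, so this ratio was higher on all 4 treated arrays. These pairs were chosen after the values were seen, and the smallest p that an exact two-sided permutation test of 2 against 2 arrays allows is 0.333, which each difference from vehicle reached. A ratio shows unequal change, not which gene moved.

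**Figure D4:**
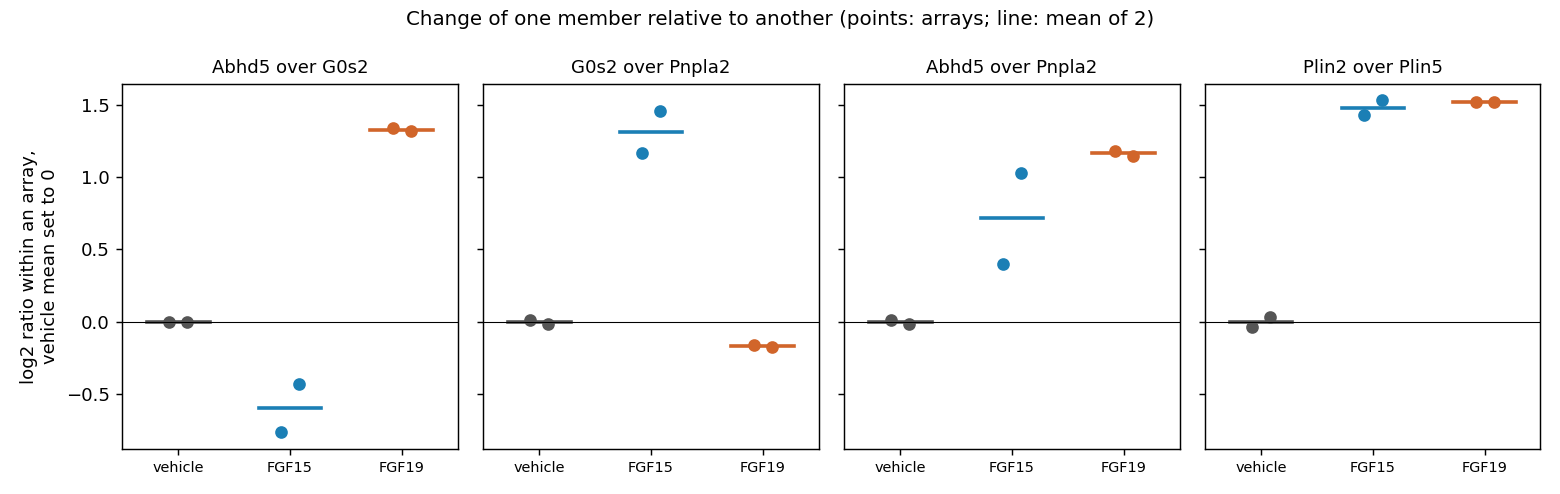
Log2 ratio of 2 genes within each array (y axis, vehicle mean set to 0; points are arrays, lines are means of 2). Abhd5 over G0s2 lies below 0 with FGF15 and above 1 with FGF19. G0s2 over Pnpla2 lies above 1 with FGF15 and slightly below 0 with FGF19. Abhd5 over Pnpla2 lies above 0 in both treated groups, and Plin2 over Plin5 lies near 1.5 in both.

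Lipe and Mgll act at the later steps. Lipe, hormone-sensitive lipase, is a major lipase of adipose tissue. Its probe set 1422820_at had a low signal of 85.0 and 95.2 with vehicle, 91.1 and 87.8 with FGF15, and 56.4 and 56.6 with FGF19. Both FGF19 arrays lay below the other 4, and FGF15 lay inside the vehicle range. The log2 difference was -0.46 ± 0.13 with FGF19, adjusted p = 0.0383, and -0.01 ± 0.13 with FGF15 (interval -0.29 to 0.28, adjusted p = 0.983). FGF19 minus FGF15 was also -0.46, adjusted p = 0.0795, and did not pass, but passed when the probe sets of each gene were averaged (adjusted p = 0.0413). The FGF19 call was lost in 9 alternatives: quantile normalization (adjusted p = 0.116), cyclic loess (0.113), median centring (0.136), no filter (0.0767), every probe set tested (0.0895), and without vehicle replicate 1 (0.0951), vehicle replicate 2 (0.166), FGF19 replicate 1 (0.14) or FGF19 replicate 2 (0.131). The first Lipe promoter holds an E-box at -155 and an EGR match on the opposite strand at -79, the latter found in 0.612% of all promoters.

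Mgll, monoglyceride lipase, also degrades the endocannabinoid 2-arachidonoylglycerol. At 1426785_s_at, whose probes can match more than 1 transcript, its signal was 1094 and 999 with vehicle, 1228 and 1505 with FGF15, and 1029 and 1204 with FGF19. The FGF15 arrays were above both vehicle arrays, while FGF19 overlapped with vehicle. The log2 difference was 0.37 ± 0.11 with FGF15, adjusted p = 0.0487, and 0.09 ± 0.11 with FGF19, adjusted p = 0.631. At 1450391_a_at the signals were tighter, 820 and 831 with vehicle, 1192 and 1230 with FGF15, and 908 and 986 with FGF19. This probe set gave 0.54 ± 0.06 with FGF15 (adjusted p = 0.00376), 0.19 ± 0.06 with FGF19 (0.132) and -0.35 ± 0.06 for FGF19 minus FGF15 (0.0426). At 1453836_a_at no difference passed, with 0.13 for FGF15 and -0.29 for FGF19, and there FGF19 replicate 1 was at 563 and FGF19 replicate 2 at 835. The fourth probe set, 1431331_at, was at 0.834 to 1.47 on all arrays. The call at 1426785_s_at was lost with quantile normalization (adjusted p = 0.0535), cyclic loess (0.0519), no filter (0.0966), the mean of the probe sets (0.0965), every probe set tested (0.118), no intensity trend (0.166), and with vehicle replicate 1 (0.111), with vehicle replicate 2 (0.232) or with FGF15 replicate 2 left out (0.267). At 1450391_a_at the rise with FGF15 was lost without vehicle replicate 1 (0.0554), and the difference between the hormones was lost without any 1 of the 6 arrays, with adjusted p from 0.0614 to 0.197.

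The direct comparison of FGF19 with FGF15 called 3 of the 9 genes, against 4.29% of all genes. Cidec and Abhd5 were higher with FGF19, where 2.40% of all genes were, and G0s2 was lower, where 1.89% were. The 2 arrays of each hormone did not overlap for any of the 9 genes, a pattern that 45.9% of all genes share. The Abhd5 difference, 0.61 ± 0.12 with adjusted p = 0.015, was not called with every probe set tested (0.065), without the intensity trend (0.118), or without FGF15 replicate 1 (0.0542), FGF19 replicate 1 (0.112) or FGF19 replicate 2 (0.0814), and at 1417565_at it was 0.32, adjusted p = 0.221. The median over the 9 genes was 0.13, beside -0.02 over all genes.

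Other genes of droplets and lipolysis were taken from 3 lists, also chosen with earlier results of these data known. Of 17 further genes of droplet coat and biogenesis, 14 were measured. With FGF15, 4 rose and 2 fell, and with FGF19, 2 rose and 1 fell. Among all genes tested, 12.5% were called with FGF15 and 13.5% with FGF19. The median log2 difference was -0.03 and -0.08, beside -0.05 and -0.07 over all genes. Fitm1, an endoplasmic reticulum protein that partitions triglyceride into droplets, rose with both hormones, from 190 and 200 with vehicle to 387 and 405 with FGF15 (0.92 ± 0.08, adjusted p = 5.3e-05) and 476 and 476 with FGF19 (1.16 ± 0.08, adjusted p = 9.9e-06). Rab18, a small GTPase found on droplets, rose by 0.37 with FGF15 (adjusted p = 0.0048) and 0.44 with FGF19 (adjusted p = 0.00177). Plin4, a perilipin typical of adipocytes, had 144 and 125 with vehicle, 60.4 and 55.9 with FGF15, and 113 and 143 with FGF19. It fell with FGF15 by 0.88 on the log2 scale (adjusted p = 0.00219) and not detectably with FGF19 (-0.06, adjusted p = 0.801), and the hormones differed by 0.82 (adjusted p = 0.00641). Fabp4, another adipocyte marker, was lower with FGF15 as well, at -0.52 (adjusted p = 0.0112). With FGF19 it was at 0.10 (adjusted p = 0.572), and FGF19 minus FGF15 was 0.62 (adjusted p = 0.00837). Ldah, a droplet-associated hydrolase, was higher with FGF15 (0.28, adjusted p = 0.0377) and lower with FGF19 (-0.29, adjusted p = 0.0324). Hsd17b11, a droplet-bound dehydrogenase, rose with FGF15 (0.38, adjusted p = 0.0144), and the droplet-bound protein Mettl7a1 fell with it (-0.26, adjusted p = 0.0265). Hilpda, a droplet protein that inhibits the lipase of Pnpla2, was named after its values were seen. It had 45.3 and 37.6 with vehicle, 33.1 and 24.6 with FGF15, and 73.2 and 73.0 with FGF19. It was higher with FGF19 than with FGF15 (0.79, adjusted p = 0.0174), while its differences from vehicle, -0.27 with FGF15 (adjusted p = 0.304) and 0.52 with FGF19 (adjusted p = 0.0535), did not pass. The latter passed in 9 alternatives, among them median centring (adjusted p = 0.0111), and when either FGF15 array was left out (0.0492 and 0.0482). The call between the hormones was lost with every probe set tested (0.0677) and when FGF15 replicate 2 (0.0862) or either FGF19 array (0.129 and 0.102) was left out. The FGF15 count of 6 in this list was 2 when vehicle replicate 2 was left out and 3 when either vehicle replicate 1 or FGF15 replicate 2 was.

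Of 15 other neutral lipid hydrolases, 11 were measured. With FGF15, 4 rose and 1 fell, and with FGF19, 6 rose and 1 fell, where 12.5% and 13.5% of all genes were called. The medians were 0.16 and 0.23, beside -0.05 and -0.07 over all genes. Ces1d, a carboxylesterase that mobilises hepatic triglyceride for lipoprotein assembly, had 1396 and 1283 with vehicle, 2062 and 2081 with FGF15, and 2509 and 2376 with FGF19. It rose by 0.62 ± 0.07 with FGF15 (adjusted p = 2.8e-04) and 0.85 ± 0.07 with FGF19 (adjusted p = 3.0e-05). Ces1f rose by 0.40 and 0.61, at a probe set that may also match related carboxylesterases (adjusted p = 0.014 and 0.00127). Abhd6, a monoglyceride hydrolase, rose by 0.35 and 0.53 (adjusted p = 0.019 and 0.00194), and Ces2a rose with FGF19 (0.36, adjusted p = 0.00387). Lpl, lipoprotein lipase, fell with FGF15 (-0.86, adjusted p = 0.00291) and was at -0.33 with FGF19 (adjusted p = 0.148). Lipg, endothelial lipase, fell with FGF19 (-1.08, adjusted p = 0.00159) and was at -0.32 with FGF15 (adjusted p = 0.236). The FGF15 count of 5 in this list was 3 when either FGF15 array or vehicle replicate 1 was left out. Leaving out vehicle replicate 2 gave 2 with FGF15 and 4, in place of 7, with FGF19.

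Of 20 regulators, which included the PPAR nuclear receptors, protein kinase A subunits and β-adrenergic receptors, 14 were measured. With FGF15, limma called 1 of them: Foxo1, a transcription factor of the fasted state known to act on Pnpla2, fell by 0.50 on the log2 scale (adjusted p = 0.0449). That call was lost in 10 alternatives, among them when either vehicle array, either FGF19 array or FGF15 replicate 2 was left out (adjusted p from 0.0562 to 0.212). With FGF19 limma called 0 of 14. The share of all genes called was 12.5% with FGF15 and 13.5% with FGF19. Ppara, the fatty acid receptor known to drive Plin2 and Plin5 in fasting, was at a log2 difference of 0.15 with FGF15 (adjusted p = 0.352) and -0.23 with FGF19 (adjusted p = 0.15).

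**Figure D5:**
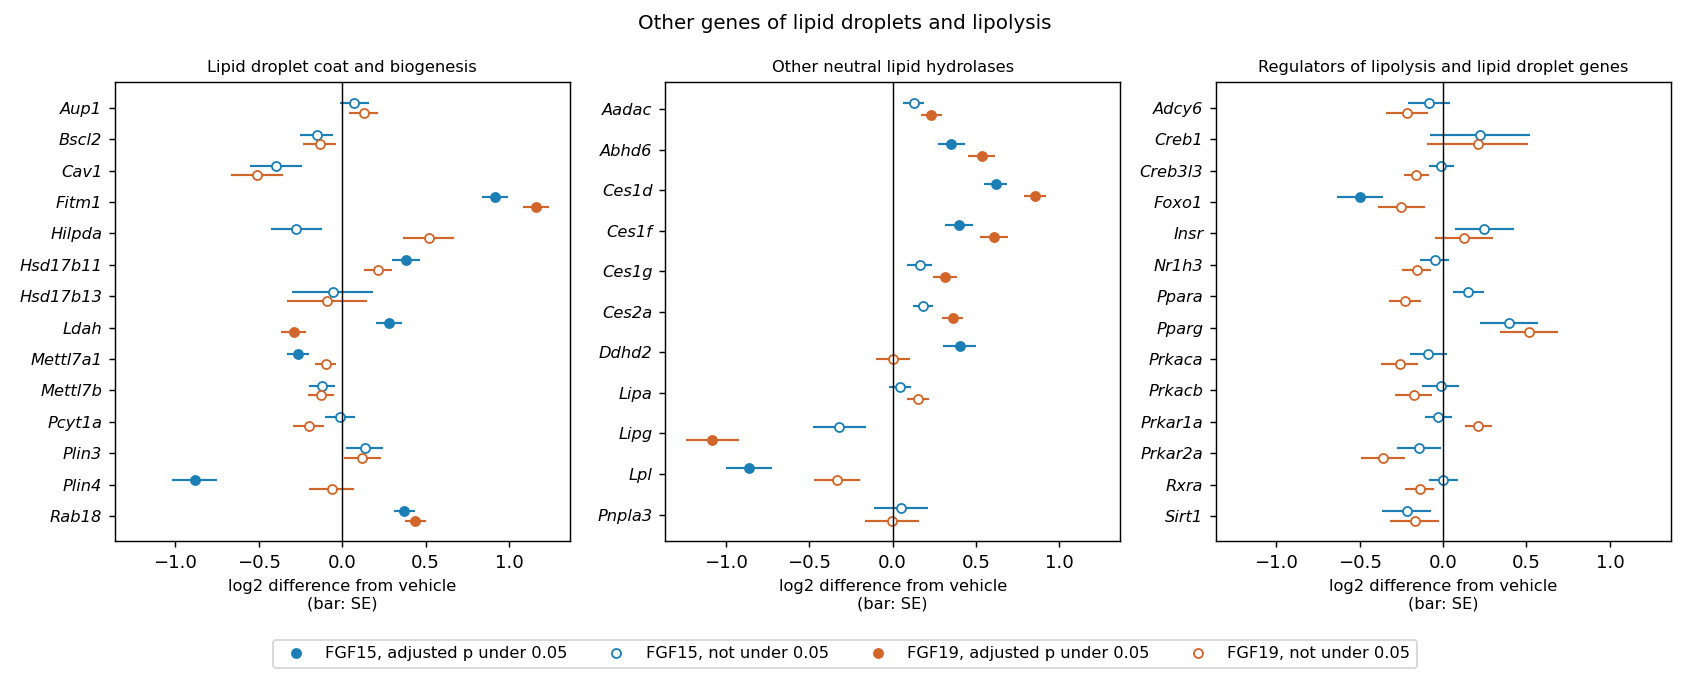
Log2 difference from vehicle (x axis; bars are the SE; filled points have an adjusted p under 0.05) for the measured genes of the 3 lists. Fitm1, Rab18, Ces1d, Ces1f and Abhd6 are higher with both hormones, whereas Plin4 and Lpl are called lower with FGF15 and Lipg with FGF19.

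The genes with the most similar profiles were found by the root mean square difference (RMS) of log2 values over the 6 arrays, after the vehicle mean of each gene was subtracted, among 9691 genes. Plin2 lay closest to Me1, the malic enzyme that supplies NADPH for fatty acid synthesis (RMS 0.0384), to Steap4 (0.0614) and to Fitm1 (0.0637). Cidec lay closest to Trib1 (0.158), Id1 (0.171) and Chka (0.184). G0s2 had more distant neighbours, Tbx3 (0.19), Inhbe (0.196) and Sh3yl1 (0.245). Abhd5 lay closest to Smad1 (0.0904), Ets2 (0.114) and Tbc1d15 (0.123). For the genes with smaller differences, the nearest were Rnf166, Cdcp1 and Fam83h for Plin5, Rab13, Kif2a and Marcks for Pnpla2, Pde7a, Ppp1r14c and 0610005C13Rik for Lipe, and Rab1a, Mogat1 and Myct1 for Mgll. Likeness over 6 arrays of 3 groups is a description and carries no test.

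RefSeq promoters were found for 9 of the 10 genes, 13 promoters in all, and Cidea was not matched. Among the promoters not printed, the nuclear receptor half-site occurs in both Plin5 promoters, at -170 and 14. The E-box occurs in the first Mgll promoter at -44, along with a forkhead match at -241, and 3.65% of all promoters hold the forkhead letters. The second Lipe promoter holds a forkhead match at -119 and the second Mgll promoter the cyclic AMP half-site on the opposite strand at 20. The Cideb promoter holds TATAAA at -172, as 13.6% of all promoters do. The letters of DR1 and of TGACGTCA were in 0 of the 13 promoters, against 0.0396% and 1.79% of all promoters.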

How the data were processed

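Per the labels, total liver RNA for 6 arrays was extracted with Stat-60, labelled with biotin and hybridised to Mouse Genome 430A 2.0 arrays. The values are the authors' deposited signal intensities for each probe set. They are linear, with a mean of about 200.09 on each array after trimming 2% at each end. The sources used here do not name the software that made them. No depth applies to arrays, and the number of arrays limits the precision. Arrays were grouped by title.

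From 22690 probe sets, 64 controls were left out. The platform annotation gave 1 gene for 20380, several for 691 and none for 1555. Each gene was represented by its probe set of highest mean, and 2701 of 12393 genes did not reach the 25th percentile of the probe sets' mean log2 values. limma 3.58.1 in R 4.3.3 (lmFit, eBayes with intensity trend) was fitted to log2(signal + 32) of 9692 genes, the 6 arrays sharing 1 model, with 3 residual and 6.82 prior degrees of freedom, two-sided, with Benjamini-Hochberg adjustment and a threshold of 0.05. A second fit covered all 22626 probe sets that are no controls, without a filter. The procedure was tested on simulated data in which 200 of 9692 genes were changed. It recovered 22.6% of changes of 0.5 and 77.6% of changes of 1 on the log2 scale, and called 3 unchanged genes. In the arrays themselves 12.5% of genes were called with FGF15 and 13.5% with FGF19, so these recovery shares need not hold there. A difference near 0.5 that was not called can still be a missed change.

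The 10 genes, the other lists and the tests were chosen with earlier results of these data known. Of the lists, the genes called against vehicle are named, at most 6 per list by smallest p, and for each of the 10 genes that was called against vehicle the 3 nearest profiles are named. Ppara, Fabp4 and Hilpda were named after their values were seen. Marker lists also covered stellate cells (3 of 8 lower with each hormone) and endothelial cells (1 of 7 lower with FGF15, 0 with FGF19). Among all genes, 6.64% were called lower with FGF15 and 7.26% with FGF19. Alternatives were pseudocounts of 16 and 64, quantile, median and cyclic loess scaling, no filter and the 50th percentile, the mean of probe sets, every probe set, no intensity trend, only the arrays compared, a replicate block and each array left out. Promoters are from RefSeq on GRCm38.p6.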

Additional observations from a re-analysis of the deposited data

Results flagged for a closer look

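For the genes below, the difference between the FGF19 and FGF15 arrays passed limma's test, which is a test of the difference itself. FGF15 was purified, FGF19 was recombinant and no dose is given, so hormone, preparation and dose cannot be told apart. Among the droplet and lipolysis genes, FGF19 minus FGF15 was 1.19 on the log2 scale for Cidec (adjusted p = 0.00163), -1.31 for G0s2 (adjusted p = 3.8e-06) and 0.61 for Abhd5 (adjusted p = 0.015). The Abhd5 call was lost in 5 of 18 alternatives, and its difference was 0.41 to 0.81 as single arrays were left out. At the second Abhd5 probe set, 1417565_at, the difference was 0.32 and did not pass (adjusted p = 0.221). Among the other named genes it was 0.82 for Plin4 (adjusted p = 0.00641), -0.57 for Ldah (adjusted p = 0.00201) and -0.76 for Lipg (adjusted p = 0.0242). For the adipocyte marker Fabp4, named after its values were seen, it was 0.62 (adjusted p = 0.00837). Hilpda, of the droplet coat and biogenesis list, also passed, at 0.79 (adjusted p = 0.0174), and was named after its values were seen. Its call was lost when FGF15 replicate 2 (adjusted p = 0.0862) or either FGF19 array (0.129 and 0.102) was left out. The Plin4 difference was not called without FGF19 replicate 2 (0.68, adjusted p = 0.0646), and the Lipg difference was not called without FGF15 replicate 2 (-0.58, adjusted p = 0.128) or FGF19 replicate 1 (-0.59, adjusted p = 0.178). G0s2 is the only gene of the 10 whose differences from vehicle were called in opposite directions.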

How the results depend on the processing

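With 2 arrays per group, counts moved with single arrays. The count of the 9 genes called was 5 with FGF15, 3 without the intensity trend or with every probe set tested, and 3 to 7 as single arrays were left out. With FGF19 it was 6, 3 with median centring and 3 to 6 as arrays were left out. For FGF19 minus FGF15 it was 3, 4 with quantile normalization or averaged probe sets, 2 without the intensity trend or with every probe set tested, and 2 to 3 as arrays were left out. Over all genes, 1213 were called with FGF15 (637 without the intensity trend, 538 to 1199 as arrays were left out), 1312 with FGF19 (733, and 600 to 1358) and 416 for FGF19 minus FGF15 (163, and 234 to 341). Of the 15 probe sets of the 10 genes, 5, 6 and 3 were called in the 3 comparisons, 2 to 6, 3 to 5 and 1 to 3 as arrays were left out, and 1 in the last without the intensity trend. No called difference of the 10 genes changed sign in any alternative. Cyclic loess and the alternatives for probe sets and ratios were added after the data were seen. The arrays share replicate numbers only: deviations of same-numbered arrays correlated at 0.08, -0.02 and 0.05. With the replicate block, 5, 6 and 3 of the 9 genes and 1246, 1380 and 450 of all genes were called. For the ratios, the mean of Abhd5 over G0s2 with FGF15 was -0.41, and that of G0s2 over Pnpla2 with FGF19 was -0.39, when the probe sets of each gene were averaged. That Pnpla2 average includes 1428591_at, which was below the filter on average.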
